A study of Marchantia polymorpha and Arabidopsis thaliana and Oryza sativa Japonica Group with 116 samples.

Results

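Wild-type Arabidopsis thaliana (accession Col-0) seedlings kept in salt for 24 h were compared with seedlings sampled after 2 h in the same salt. The comparison uses 6 of the 116 RNA-seq libraries of the study, 3 at 2 h and 3 at 24 h, chosen by their labels (genotype col-0, WT; 100 mM NaCl; time). All seedlings were 7 days old, grown in liquid diluted Murashige-Skoog medium under continuous light, and moved to the same medium with 100 mM NaCl. The 3 Col-0 libraries at 0 h, which received no NaCl, were used to tell which changes were already present at 2 h. Seedlings with changes in heterotrimeric G-protein genes (gpa1-3, agb1-2 and xlg1,2,3; 3 libraries each at 2 h and 24 h in 100 mM NaCl) gave the same time step in other libraries. There was no group kept without NaCl for 2 h or 24 h, so NaCl and the 22 h of elapsed time and growth cannot be told apart. Nothing in the labels says that the 3 libraries of a group came from separate cultures, although the design text calls them biological replicates. The p-values therefore measure spread between libraries. This spread was estimated over all 44 Arabidopsis libraries, mutant and tunicamycin libraries included. It is not the spread of the 6 compared libraries alone. With the Col-0 salt-course libraries alone, 8994 of 19564 genes tested were called as changed between 2 h and 24 h. With all libraries 10589 of 20858 were.

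Sodium chloride first withdraws water from plant cells and then loads them with sodium. Within hours the hormone abscisic acid (ABA) builds up, its PYR/PYL receptors block the clade A PP2C phosphatases, SnRK2 kinases are set free, and ABF transcription factors switch on dehydration genes through the promoter element called ABRE. In background studies of the plant, growth stops quickly and is later resumed at a slower rate, and the first wave of stress transcripts fades while osmolytes, ion transport and protective enzymes take over.

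The labels were checked against the data. Library totals ran from 16218737 to 38067512 counts at 2 h and from 16391896 to 31274121 counts at 24 h, with replicate 3 the shallowest in each group, and each of the 9 Col-0 salt-course libraries lay nearest to a library of its own time. Photosynthesis genes, abundant in green seedlings, summed to 41272 to 45345 CPM (counts scaled to library size) at 2 h and 53813 to 61695 CPM at 24 h. Root tissue was poorly covered by some markers: none of 5 root hair genes (PRP3, COBL9, LRX1, EXPA7, EXPA18) passed 0.185 CPM in any of these 9 libraries, whereas the root endodermis gene SCR was at 38.2 CPM at 2 h. None of 6 genes of the aliphatic glucosinolate pathway passed 0.124 CPM. Seed storage genes summed to 96.5 CPM in replicate 1 at 24 h and to between 1.19 and 1.83 CPM in the other 2 h and 24 h libraries. Replicate 1 at 24 h also held the highest value of the 3 libraries for 50.8% of the genes that were at least 2-fold higher at 24 h, against 33.9% of all genes tested, so values without it are given below where they change a statement.

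Between 2 h and 24 h the levels of many genes changed in both directions. Of 20858 genes tested, 10589 (50.8%) differed at an adjusted p under 0.05 (edgeR quasi-likelihood test, Benjamini-Hochberg adjustment), 5359 higher (25.7%) and 5230 lower (25.1%) at 24 h. This balance depends on the scaling: with DESeq2 size factors 4945 were higher and 5627 lower. At least 2-fold changes were 1643 rises (7.88%) and 2143 falls (10.3%). The median log2 change over all genes tested was 0.01. All levels below are CPM after TMM scaling, which are not divided by gene length and so are compared only within a gene. Seedlings hold many cell types, and fewer cells of a type cannot be told apart from less RNA per cell.

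A gene was called an early gene when 2 h differed from 0 h at adjusted p under 0.05 and by at least 2-fold; 4567 genes (21.9%) met this, 2372 higher (11.4%) and 2195 lower (10.5%) at 2 h. It was called recovered when 24 h differed from 2 h in the opposite direction and 24 h against 0 h was not called. It was partly recovered when the change back was called but 24 h still differed from 0 h in the early direction, and reversed when 24 h had passed to the other side of 0 h. It had persisted when 24 h against 2 h was not called and 24 h still differed from 0 h, and strengthened when it went further in the early direction. These 3 contrasts share libraries, and a contrast that was not called does not show equal levels.

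Most early genes were called as changed again between 2 h and 24 h, mostly in the opposite direction. A move back is partly built in, because early genes were chosen by the same 2 h libraries that the step back uses. Of all early genes 1032 (22.6%) had recovered, 1255 (27.5%) had partly recovered and 267 (5.85%) had reversed. Another 1378 (30.2%) persisted, 441 (9.66%) strengthened and 194 (4.25%) were unresolved. Of all genes tested these classes made up 4.95%, 6.02%, 1.28%, 6.61%, 2.11% and 0.93%. Of the 2372 early rises 608 (25.6%) had recovered and 171 (7.21%) had reversed. Of the 2195 early falls 424 (19.3%) had recovered and 96 (4.37%) had reversed. Early falls persisted in 698 genes (31.8%) and early rises in 680 (28.7%). A further 546 genes (2.62% of those tested) rose and 587 (2.81%) fell by 24 h without a called change at 2 h; these are named late genes here. Without replicate 1 or replicate 2 at 24 h the unresolved count became 327 or 334. The shares also depend on the rule for early genes. With no fold threshold there were 11744 early genes, of which 2780 recovered, 1721 partly recovered, 853 reversed and 3980 persisted.

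**Figure D1:**
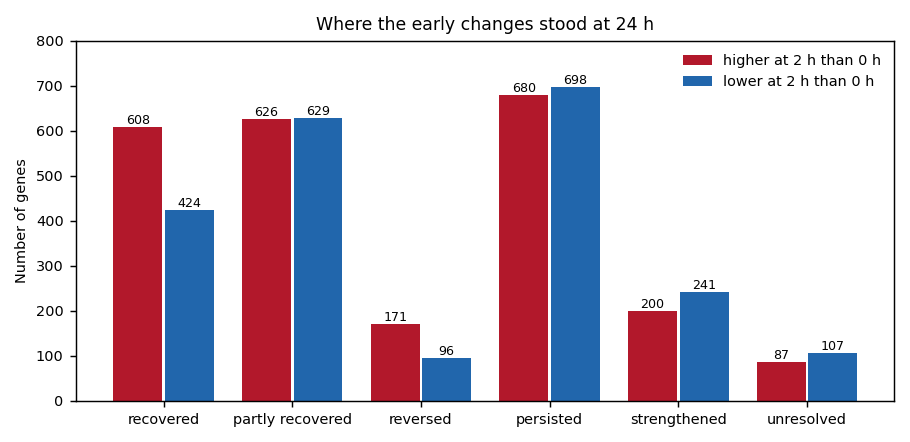
Number of genes (axis from 0) in each class of early change at 24 h, for genes higher (red) and lower (blue) at 2 h than at 0 h in Col-0. Persisting and partly recovered changes formed the tallest bars in both directions, and recovered rises (608) outnumbered recovered falls (424).

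The size of the return differed by class. Recovered early rises had a median log2 change from 0 h of 1.66 at 2 h and 0.09 at 24 h, whereas partly recovered rises went from 1.89 to 0.97. Reversed rises had come to -1.25 at 24 h. Strengthened falls deepened from -1.51 to -2.85. These medians follow from how the classes were drawn and carry no test.

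**Figure D2:**
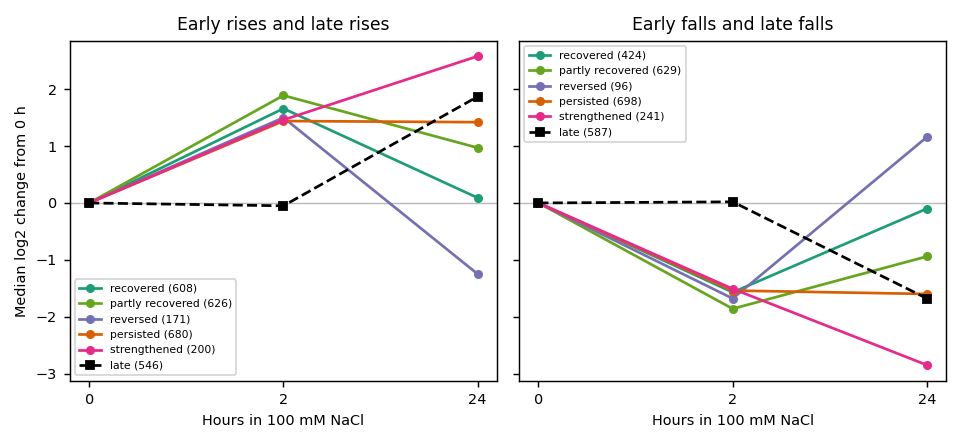
Median log2 change from 0 h in each class (y axis) at 0, 2 and 24 h of 100 mM NaCl (x axis, times evenly spaced, not to scale), with the number of genes in brackets; dashed lines are late genes. Recovered classes end near 0, reversed rises end at -1.25, and strengthened falls end at -2.85.

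The 10 largest falls from 2 h to 24 h were all of early rises, which is partly built in because both steps use the same 2 h libraries. The largest was that of AT5G47330, annotated as an alpha/beta-hydrolase, from 20.5, 32.7 and 45.6 CPM at 2 h to 0.103, 0.213 and 0.188 CPM at 24 h (log2 change -7.60, SE 0.36, adjusted p 8.1e-18), the latter from 3, 6 and 3 reads. It had been at 2.59 to 4.08 CPM at 0 h, above every 24 h library. GRP5, a glycine-rich protein, and AT3G23450, annotated as uncharacterized, had also reversed, with log2 changes of -5.82 and -4.98. Among the other falls of this size, COR15A encodes a chloroplast protein that protects membranes during freezing and drying. It stood at 0.141, 0.123 and 0.0618 CPM at 0 h, 12.7, 15.4 and 9.41 CPM at 2 h, and 0.0688, 0.107 and 0.0627 CPM at 24 h. The 2 h libraries were apart from all the others, and the 24 h values rest on 2, 3 and 1 reads (log2 change -7.19, SE 0.42, adjusted p 2.6e-15). Its neighbour COR15B, a similar gene with which reads could be shared, fell by 5.66 on the log2 scale. RD22, an ABA- and drought-induced BURP-domain protein, read 310, 283 and 346 CPM at 2 h and 5.43, 8.75 and 7.08 CPM at 24 h, close to its 7.96 to 11.2 CPM at 0 h (log2 change -5.46, SE 0.27, adjusted p 3.1e-17). COR6.6 (also KIN2), a small hydrophilic cold- and ABA-induced protein, read 299, 308 and 177 CPM at 2 h against 5.05, 10.9 and 7.9 CPM at 24 h. The 2 h and 24 h libraries of these genes did not overlap, as for 51.3% of all genes tested.

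The promoters of COR15A, RD22 and COR6.6 are shown as examples. ABRE and DRE elements are the known entry points of ABA and of DREB factors into dehydration genes. Each sequence is the 250 bases before the annotated gene start (TAIR10.1, RefSeq annotation), 5′ to 3′ on the gene's strand; capitals mark ACGTG (ABRE core), CCGAC (DRE core) or CGCGT (bound by calmodulin-binding CAMTA factors) on either strand. CACGTG reads as ACGTG on both strands, so it counts as overlapping matches. AT3G02480, a late embryogenesis abundant protein that only partly recovered, is added to them.
COR15A (chr2:17712331-17712580, minus strand): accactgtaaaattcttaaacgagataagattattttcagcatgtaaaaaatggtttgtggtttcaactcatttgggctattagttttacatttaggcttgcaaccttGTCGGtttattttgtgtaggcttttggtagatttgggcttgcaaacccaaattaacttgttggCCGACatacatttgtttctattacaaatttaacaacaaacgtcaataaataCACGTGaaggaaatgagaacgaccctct
RD22 (chr5:8916857-8917106, minus strand): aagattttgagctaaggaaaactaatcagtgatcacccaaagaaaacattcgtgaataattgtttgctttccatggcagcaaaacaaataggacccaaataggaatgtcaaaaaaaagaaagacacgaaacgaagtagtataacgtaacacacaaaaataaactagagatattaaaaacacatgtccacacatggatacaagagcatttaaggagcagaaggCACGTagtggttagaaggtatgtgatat
COR6.6 (chr5:5211469-5211718, plus strand): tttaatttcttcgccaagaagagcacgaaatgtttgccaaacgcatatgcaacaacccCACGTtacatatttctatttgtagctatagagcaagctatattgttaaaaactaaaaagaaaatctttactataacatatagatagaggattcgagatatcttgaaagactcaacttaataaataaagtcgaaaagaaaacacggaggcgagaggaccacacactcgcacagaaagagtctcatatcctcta
AT3G02480 (chr3:511970-512219, plus strand): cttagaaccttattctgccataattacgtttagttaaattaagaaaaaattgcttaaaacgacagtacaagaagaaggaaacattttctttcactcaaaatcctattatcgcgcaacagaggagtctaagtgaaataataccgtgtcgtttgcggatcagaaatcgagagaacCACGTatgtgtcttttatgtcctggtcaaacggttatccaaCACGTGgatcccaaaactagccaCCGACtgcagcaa
COR15A held 2 matches to CCGAC and 2 to ACGTG, RD22 and COR6.6 held 1 ACGTG each, and AT3G02480 held 3 ACGTG and 1 CCGAC. The promoter of COR15B, which had also recovered and is not printed, held 0 matches to ACGTG and 0 to CCGAC. Among the promoters of 18 ABA and dehydration effector genes, 61.1% held ACGTG and 33.3% held CCGAC, against 22.9% and 12% of all 27443 protein-coding promoters. Among recovered early rises as a whole the shares were 27.6% and 11.4%. TTGAC (W-box core, bound by WRKY factors) occurred in 55.4% of recovered early rises and 44.9% of all promoters. Its shares in partly recovered, reversed, persisted and strengthened early rises were 55%, 57.7%, 50.3% and 52.8%. Those of ACGTG in the same order were 31.5%, 32.7%, 29.5% and 31.6%. Neither share was particular to recovered rises. A match is only these letters in this window, and these shares were not tested.

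ABA and dehydration effectors as a list rose at 2 h and fell back. At 24 h against 2 h, 14 of 18 were lower, 1 was higher and 3 were not called, with a median log2 change of -1.95. The shares of all genes were 25.1% lower and 25.7% higher. At 2 h against 0 h 14 were early rises, and of these 6 had recovered, 5 had partly recovered, 1 (RD29A) had reversed, 1 (LEA7) persisted and 1 (NAC019) strengthened. RD29A, a hydrophilic protein used as a reporter of osmotic stress, averaged 175 CPM at 0 h, 644 CPM at 2 h and 33.3 CPM at 24 h. RD29B, which is driven mainly by ABA, kept a part of its rise, with 1.29, 25.3 and 7.9 CPM at the 3 times. The dehydrins COR47 and ERD10 showed no called early rise and were lower at 24 h than before NaCl, ERD10 going from 689 CPM at 0 h to 538 and then 104 CPM. NAC019, a NAC factor of ABA and jasmonate responses, rose from 54.3 CPM at 2 h to 135 CPM at 24 h (log2 change 1.32, adjusted p 0.0023).

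Parts of the core ABA pathway moved back, in opposite directions. In the whole list 8 of 25 genes rose, 9 fell and 8 were not called (median -0.02). Over all genes 25.7% rose and 25.1% fell. Of 9 PYR/PYL receptors 6 rose and none fell between 2 h and 24 h, while of 9 clade A PP2C phosphatases none rose and 5 fell; 3 of the 4 ABF factors fell. The receptor gene PYL5 read 207, 229 and 206 CPM at 0 h, 35.4, 63.7 and 42.1 CPM at 2 h, and 149, 166 and 146 CPM at 24 h. Each of its 24 h libraries lay between the others (log2 change from 2 h 1.71, SE 0.13, adjusted p 1.2e-12). ABF3, an ABRE-binding factor, went from 36.3 CPM at 0 h to 202 CPM and back to 61.4 CPM (log2 change -1.72, SE 0.14, adjusted p 4.5e-12), and the phosphatase gene HAI1 from 9.72 to 55.2 and 15.8 CPM. Of the 16 early genes of the list 12 had partly recovered, and 1, the phosphatase ABI2 with 3.95, 19.1 and 5.29 CPM, had recovered. Antisense genes overlap ABF3, P5CS1, AAO3, FAR1, CYP86A2, COR15B, NRT1.8, RRTF1, MYB44, MPK3 and CHLI1, among others. The strand setting of the counting is not given in the sources used here, so reads of such partners cannot be told apart.

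ABA turnover genes did not move together. CYP707A3, a hydroxylase that inactivates ABA, read 17.5, 11 and 17.7 CPM at 0 h, 5.18, 5.18 and 6.32 CPM at 2 h and 86, 64.4 and 42.1 CPM at 24 h (log2 change from 2 h 3.55, SE 0.52, adjusted p 9.7e-07). All 24 h libraries exceeded all earlier ones. The related CYP707A2 and CYP707A4, and AAO3 of the last step of ABA synthesis, fell by 1.71, 1.32 and 1.22 on the log2 scale. P5CS1, which makes the first committed step of proline, read 674, 448 and 415 CPM at 2 h and 71.1, 77.6 and 78.2 CPM at 24 h, still above its 20.8 to 25.8 CPM at 0 h. SIP1, a raffinose synthase, declined at both steps, from 151 CPM to 25.3 and then 3.3 CPM (log2 change from 2 h -2.95, SE 0.17, adjusted p 2.6e-15).

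The other 3 of the 10 largest falls, in FAR1, CYP86A2 and CAD9, went below the level before NaCl. FAR1, a reductase that makes the fatty alcohols of suberin, read 249, 299 and 362 CPM at 2 h and 1.48, 3.63 and 2.69 CPM at 24 h, against 8.55 to 12.5 CPM at 0 h (log2 change -6.87, SE 0.28, adjusted p 4.7e-19). CYP86A2, a fatty acid hydroxylase of cutin synthesis, went from 125 CPM to 792 CPM and then to 23.3 CPM (log2 change from 2 h -5.08, SE 0.19, adjusted p 2.6e-20). CAD9, a member of the cinnamyl alcohol dehydrogenase family, went from 6.5 to 85.4 and 1.95 CPM. For each of them the 24 h libraries lay below those of 0 h as well as 2 h. In the cuticle and suberin list 11 of 16 fell and 3 rose (median -1.51), although all 16 had been higher at 2 h than at 0 h (28.4% of all genes were). CER6, the condensing enzyme for wax chains, reversed (225, 593 and 129 CPM), and the suberin gene ASFT partly recovered (3.33, 74.3 and 8.5 CPM). The 3 that rose, CYP86A1, FAR4 and FAR5, also act in suberin and stood at 4.37, 0.919 and 1.04 CPM at 24 h. Suberin is laid down mainly in roots, and 15 root marker genes summed to 25.9 to 28.9 CPM at 0 h, 60.8 to 72.2 CPM at 2 h and 46.9 to 59.2 CPM at 24 h. Of the 14 root markers tested, 4 were higher and 1 lower at 2 h than at 0 h, and 0 were higher and 3 (SCR, CASP2 and MYB36) lower at 24 h than at 2 h; without single Col-0 libraries 1 to 5 were lower, with 5 without replicate 1 at 2 h and 1 without replicate 2 at 2 h or at 24 h. Among all genes tested, 28.4% were higher and 27.9% lower at 2 h than at 0 h. At 24 h against 2 h, 25.7% were higher and 25.1% lower. The counts of 4 higher and 3 lower markers are near these shares and are no result about the markers. The root hair gene EXPA18 was at 0 in all 9 libraries. The part of root tissue in the suberin values was not tested.

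Phenylpropanoid and flavonoid genes rose and returned almost as a block. Of 16 tested, 14 were lower and 1, TT7, was higher at 24 h than 2 h (median -2.16). Over all genes 25.1% were lower and 25.7% higher. Of 13 early rises 10 had recovered, 2 had reversed and 1 had partly recovered. PAL1, the entry enzyme of the pathway, read 133, 157 and 139 CPM at 0 h, 424, 1093 and 1225 CPM at 2 h and 81.4, 80.2 and 99.6 CPM at 24 h. Replicate 1 at 2 h was the lowest of its group but still above every other library (log2 change -3.39, SE 0.27, adjusted p 4e-12). TT4, chalcone synthase, went from 0.941 to 5.98 and 0.248 CPM. The later anthocyanin genes DFR and LDOX had no more than 0.0119 CPM on average at any of the 3 times. Of 12 indole glucosinolate and camalexin genes tested, 11 fell and none rose (median -1.75). CYP71A12, which acts in camalexin synthesis, read 79.6, 210 and 151 CPM at 2 h and 5.84, 3.56 and 4.95 CPM at 24 h (log2 change -4.94, SE 0.27, adjusted p 5.5e-16), with 0 h at 61.6 to 87.7 CPM. SOT16, a sulfotransferase of glucosinolate synthesis, went from 254 CPM to 64.2 CPM. FRK1, a kinase gene used as a marker of immune signalling, rose from 48.9 to 61.9 CPM at 0 h to 558, 917 and 847 CPM at 2 h. It had recovered at 24 h, with 58.9, 77.8 and 67.1 CPM. FRK1 does not stand for the pattern-triggered immunity list, where it was the only recovered early rise. At 2 h against 0 h 4 of its 12 genes were higher and 2 lower (median 0.05), where 28.4% and 27.9% of all genes were. At 24 h against 2 h 5 fell, 1 rose and 6 were not called.

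**Figure D3:**
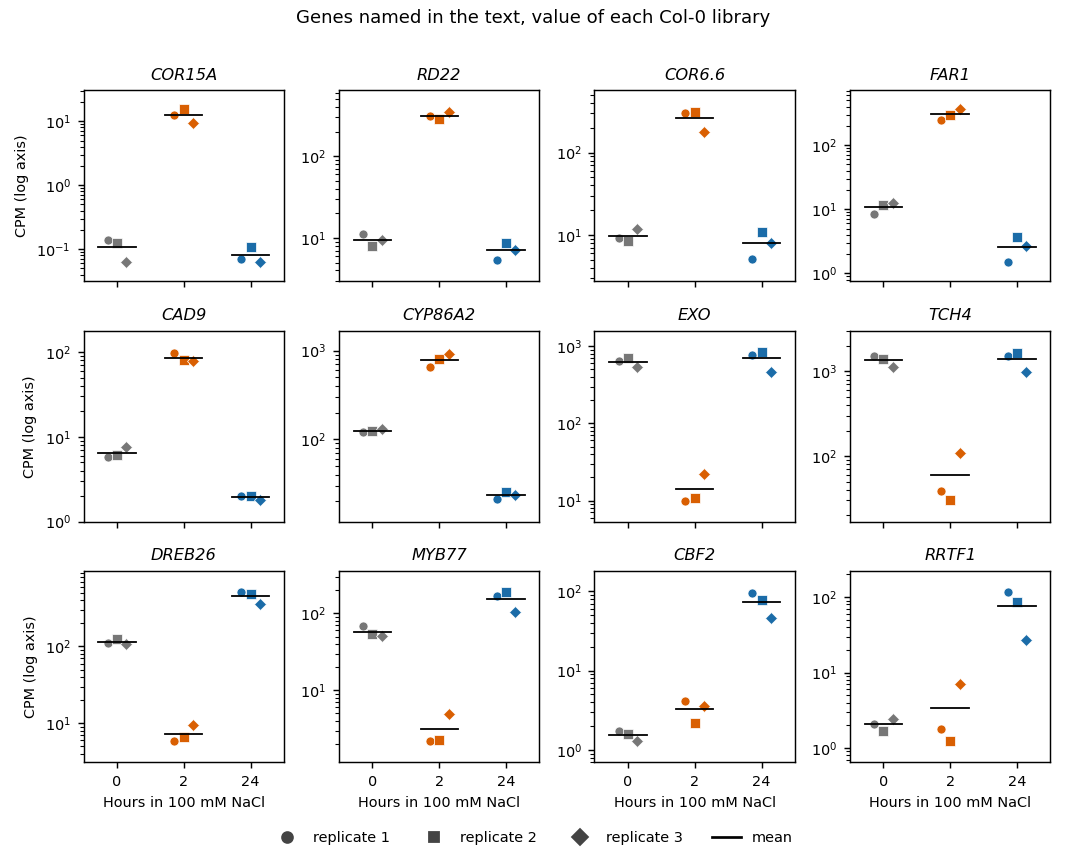
CPM of 12 genes (y axes logarithmic, a scale for each gene) in each Col-0 library at 0 h (grey), 2 h (orange) and 24 h (blue) of 100 mM NaCl; symbols mark replicates and lines the means. The first 6 genes peak at 2 h, EXO and TCH4 dip at 2 h and return, and DREB26, MYB77, CBF2 and RRTF1 end above 0 h.

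EXO, TCH4 and XTH23 fell early and had recovered. EXO (EXORDIUM), a brassinosteroid-induced extracellular protein of cell expansion, read 637, 712 and 533 CPM at 0 h, 9.93, 10.9 and 21.9 CPM at 2 h and 776, 846 and 470 CPM at 24 h (log2 change from 2 h 5.65, SE 0.48, adjusted p 1.1e-11). TCH4 (XTH22), a touch-induced xyloglucan endotransglucosylase that loosens walls, read 1505, 1415 and 1132 CPM, then 39, 30.7 and 109 CPM, then 1510, 1642 and 987 CPM (log2 change 4.55, SE 0.54, adjusted p 1.6e-08; 5.30 without replicate 3 at 2 h). XTH23 followed with 668, 23.1 and 527 CPM. In all 3 genes the 0 h and 24 h libraries overlapped and the 2 h libraries lay far below. These are among 424 early falls that recovered.

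Most other wall genes had not returned. In the primary wall list 13 of 26 rose, 5 fell and 8 were not called (median 0.43). Over all genes 25.7% rose and 25.1% fell. In the list 23 had been lower at 2 h than at 0 h (27.9% of all genes were). At 24 h 21 were lower than at 0 h (28.8%). Without replicate 1 at 24 h 3 fell. Of the early falls 2 had recovered, TCH4 and XTH23. XTH16 read 97.3, 103 and 98.6 CPM at 0 h and 3.71, 2.7 and 3.64 CPM at 24 h after 0.442 to 1.39 CPM at 2 h. The cellulose synthase genes CESA2, CESA5 and CESA6 rose from their 2 h level, CESA2 from 52.5 to 101 CPM with 192 CPM at 0 h, and CESA1 and CESA3 were not called. The arabinogalactan proteins AGP17 and AGP18, which sit at the wall and membrane, differed in how far they came back: AGP17 went from 1.26 to 1.39 CPM at 2 h to 34.6 to 50.1 CPM at 24 h, and AGP18 from 0.6 to 1.01 CPM to 3.58 to 4.38 CPM. At 0 h they had been at 131 to 187 CPM and 95.3 to 155 CPM. FLA9, a fasciclin-like wall protein, went from 3.63 ± 0.51 CPM (SD, n = 3) at 2 h to 54.3 ± 9.63 CPM at 24 h, and had partly recovered towards its 70.2 to 87.7 CPM at 0 h.

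In the auxin list 12 of 23 fell and 3 rose (median -0.94), and 18 were below 0 h at 24 h. For comparison with this and the next lists, 25.1% of all genes fell, 25.7% rose and 28.8% were below 0 h. GH3.6, an enzyme that conjugates auxin to amino acids, went from 108, 92.1 and 131 CPM at 2 h to 28.8, 21.6 and 25.2 CPM at 24 h with no called change before (adjusted p 9.9e-13). Its relative GH3.3 fell early and persisted, with 97 to 190 CPM at 0 h and no more than 3.7 CPM in any later library. Type-A response regulators report cytokinin signalling. None of 9 rose and 4 fell between 2 h and 24 h; of these ARR4 and ARR7 had already fallen early, and ARR3 and ARR8 had not. ARR7 went from 121 CPM to 8.04 and then 3.94 CPM (log2 change from 2 h -1.03, adjusted p 2.2e-06). In the cytokinin list 5 of 12 fell, and 3 without replicate 2 at 2 h or without replicate 2 at 24 h. In the gibberellin and brassinosteroid list 8 of 14 rose and 2 fell: the DELLA repressor RGA rose from 37.4 ± 4.99 CPM to 77.1 ± 3.43 CPM (SD, n = 3), and DWF4, a brassinosteroid synthesis enzyme, fell from 12.1 to 18.6 CPM to 4.52 to 5.83 CPM. In the cell cycle list 9 of 20 fell and 3 rose. PCNA2, the sliding clamp of DNA replication, read 5.51, 5.92 and 5.62 CPM at 2 h and 2.13, 1.81 and 1.25 CPM at 24 h.

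Of the 10 largest rises 4 were of the transcription factor genes DDF1, DREB26, MYB77 and AT1G77640. The largest was that of MMD1, a PHD-finger gene, from 0.0273, 0 and 0.253 CPM at 2 h to 18.7, 9.68 and 2.38 CPM at 24 h, with only 1, 0 and 4 reads at 2 h (log2 change 7.30, SE 1.00, adjusted p 2.7e-07). Its log2 change was 6.54 without replicate 1 at 24 h, 6.65 without replicate 2 at 2 h and 9.08 without replicate 3 at 2 h. AT5G20260, annotated as an exostosin family protein, and AT3G19680, with a domain of unknown function, were early falls that reversed, with log2 changes of 5.80 and 5.10. An antisense gene overlaps each of the latter genes. In these 3 genes no 2 h library reached the level of a 24 h library. DREB26, a DREB-family factor, read 110, 125 and 108 CPM at 0 h, 5.84, 6.66 and 9.47 CPM at 2 h and 508, 483 and 361 CPM at 24 h (log2 change from 2 h 5.97, SE 0.39, adjusted p 2.3e-14). MYB77, which modulates auxin responses in roots, read 2.18, 2.29 and 4.93 CPM at 2 h and 166, 188 and 104 CPM at 24 h, against 51.1 to 68.2 CPM at 0 h. Both had fallen early and then passed their starting level in all 3 libraries. MYB44, its relative in ABA responses, did the same with 264, 40.7 and 519 CPM.

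All 7 tested CBF/DREB genes rose (median 2.90), where 25.7% of all genes did. Among them 5 were late rises (2.62% of all genes were) and CBF4 was an early rise that strengthened. CBF2, a master factor of cold responses, read 1.72, 1.57 and 1.3 CPM at 0 h, 4.15, 2.16 and 3.54 CPM at 2 h and 96.4, 78.2 and 45.8 CPM at 24 h. DDF1, a factor of salt and gibberellin responses, read 0.109, 0.354 and 0.947 CPM at 2 h and 36.1, 32.8 and 6.96 CPM at 24 h (log2 change 6.08, SE 0.95, adjusted p 2.6e-06; 5.43 without replicate 1 at 2 h and 6.82 without replicate 3 at 2 h). RRTF1, an ERF factor of redox and wound responses, went from 1.77, 1.22 and 7.01 CPM to 117, 87.6 and 26.9 CPM (log2 change 4.74, SE 0.99, adjusted p 0.00016; 5.68 without replicate 3 at 2 h). In each of these 3 genes replicate 1 was the highest and replicate 3 the lowest at 24 h, yet the groups did not overlap. Replicate 1 was the highest 24 h library for 7 of 7 genes of the list, and the list had 7 rises without it as well.
The promoters of DDF1 and RRTF1 are printed as examples of late rises in which the marked letters differ; the window, strand and capitals are as for COR15A.
DDF1 (chr1:4291018-4291267, minus strand): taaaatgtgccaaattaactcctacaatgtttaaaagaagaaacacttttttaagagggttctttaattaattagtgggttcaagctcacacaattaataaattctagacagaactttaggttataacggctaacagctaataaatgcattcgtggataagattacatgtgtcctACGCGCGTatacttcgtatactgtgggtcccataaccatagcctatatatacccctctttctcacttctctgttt
RRTF1 (chr4:16451626-16451875, plus strand): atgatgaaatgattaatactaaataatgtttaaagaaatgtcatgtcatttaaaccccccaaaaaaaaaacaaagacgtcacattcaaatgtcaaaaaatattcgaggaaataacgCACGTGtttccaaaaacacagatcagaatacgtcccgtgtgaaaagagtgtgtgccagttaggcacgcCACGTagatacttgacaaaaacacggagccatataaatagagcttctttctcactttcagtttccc
DDF1 held 2 matches to CGCGT, which share bases, and none to ACGTG, whereas RRTF1 held 3 to ACGTG and none to that element. The CAMTA core was in 37.5% of 8 CBF/DREB promoters (3 of them), 9.63% of late rises and 6.87% of all promoters. Among classes of early falls its share ran from 7.6% (persisted) to 11.2% (partly recovered), so it was not particular to late rises. In the same 8 promoters ACGTG and AAATATCT (evening element) were each in 50%, against 22.9% and 4.79% of all. ACGTG was in 28.5% of late rises. GAANNTTC, a core of the heat shock element, was in 31.6% of 19 heat shock promoters and 9.55% of all. It was not particular to that list. Shares in other lists ran from 0%, as in the unfolded protein list, to 35.3% of 17 salicylic acid and defence promoters and 42.9% of 7 calcium and MAP kinase promoters. These shares are descriptions with no test.

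Other quickly induced genes also rose. In the list of rapid stress transcription factors 18 of 38 rose and 9 fell (median 0.60), where 25.7% of all genes rose and 25.1% fell. The 9 falls are near that share. ERF104, an ethylene-response factor of immunity, read 53.5, 59.5 and 48.1 CPM at 2 h and 284, 241 and 222 CPM at 24 h. WRKY18, a defence regulator, partly recovered, from 357 CPM to 37.1 and 211 CPM. WRKY8 fell late, from 22.5 to 30.2 CPM at 2 h to 4.68 to 6.27 CPM at 24 h. Of 7 calcium and MAP kinase genes 6 rose and none fell, and 5 rose with DESeq2 size factors. Without replicate 1 at 2 h, or without replicate 2 at 24 h, 4 rose. MPK3, a stress-activated MAP kinase, went from 75, 86.9 and 102 CPM to 306, 228 and 165 CPM. In the jasmonate list 12 of 22 rose and 5 fell (median 0.75). Without replicate 1 or replicate 2 at 2 h, or without replicate 2 at 24 h, 9 rose. Of 10 JAZ repressors 7 rose, JAZ7 from 0.773 to 1.58 CPM to 10.2 to 26.1 CPM, while AOC2, of jasmonate synthesis, fell from 67.8, 69.4 and 139 CPM to 17.9, 20.2 and 17.4 CPM.

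Heat shock genes rose at 24 h, with most of the highest values in a single library. In the list 12 of 18 were higher and none lower (median 1.37), after 12 had been lower at 2 h than at 0 h. The shares of all genes were 25.7% higher at 24 h than 2 h and 27.9% lower at 2 h than at 0 h. HSFA2, the factor that sustains the heat response, read 21.5, 26.5 and 14 CPM at 0 h, 5.7, 9.95 and 8.84 CPM at 2 h and 279, 53.9 and 18 CPM at 24 h (log2 change from 2 h 3.86, SE 0.64, adjusted p 7.1e-06). Without replicate 1 at 24 h its log2 change was 2.17. FES1A, a co-chaperone of HSP70, had 279, 106 and 42.2 CPM at 24 h against 36.4, 38.2 and 43.5 CPM at 2 h, so its groups overlapped. Replicate 1 was the highest 24 h library for 16 of 18 genes, and without it 5 were higher with a median of 0.45; without replicate 1 at 2 h 7 were higher. The seed storage genes were high in the same library: CRA1, a 12S globulin, read 55.4 CPM there and 0.107 and 0.125 CPM in the other 24 h libraries. What the seed RNA had to do with the heat shock values was not tested. In the unfolded protein list, made of chaperones of the endoplasmic reticulum and their regulators, 1 of 19 rose, BZIP28, whereas 10 did without replicate 3 at 2 h and 0 did without replicate 1 at 2 h.

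Ion and water transport changed gene by gene. In the sodium, potassium and proton list 8 of 26 rose and 7 fell (median 0.12), near the 25.7% and 25.1% of all genes, so the count is no result about the list. AHA2, a plasma membrane proton pump that energises sodium export, read 508, 727 and 600 CPM at 0 h, 1335, 1638 and 1705 CPM at 2 h and 337, 300 and 338 CPM at 24 h (log2 change from 2 h -2.26, SE 0.15, adjusted p 5.7e-14). It had reversed, with all 24 h libraries below those of 0 h. SLAH3, an anion channel for nitrate and chloride, partly recovered, from 605, 638 and 526 CPM to 34.4, 47.2 and 33.1 CPM and then 267, 338 and 251 CPM. SOS1, SOS2 and SOS3, of the sodium export pathway, were not called (SOS1 27.5 and 31.6 CPM at 2 h and 24 h). The vacuolar pump VHP1 rose from 813 to 1382 CPM (log2 change 0.77, adjusted p 4.9e-05). NRT1.8, which withdraws nitrate from the xylem, read 253, 289 and 198 CPM at 0 h, 3.08, 2.99 and 4.36 CPM at 2 h and 151, 157 and 90.8 CPM at 24 h (log2 change from 2 h 5.30, SE 0.22, adjusted p 6.8e-19).

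Aquaporins were mostly lower at 24 h, with 10 of 19 lower and 2 higher (median -0.46), against 25.1% and 25.7% of all genes. TIP1;1, a water channel of the vacuolar membrane, fell at both steps, with 400, 514 and 377 CPM, then 102, 110 and 130 CPM, then 18.1, 18.6 and 19.9 CPM (log2 change from 2 h -2.60, SE 0.17, adjusted p 1.7e-14). The plasma membrane channels PIP1;1 and PIP1;2 had risen early and persisted, PIP1;2 at 396, 838 and 820 CPM.

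Photosynthesis genes rose modestly and together. Of 31 tested 23 were higher and 2 lower at 24 h (median 0.41), against 25.7% of all genes higher. All 4 Rubisco small-subunit genes rose, RBCS1B from 513, 492 and 334 CPM to 1221, 1390 and 1060 CPM, although these near-identical genes could exchange reads. CHLI1, a subunit of magnesium chelatase in chlorophyll synthesis, went from 173, 181 and 147 CPM to 341, 380 and 360 CPM (log2 change 1.11, SE 0.09, adjusted p 2.1e-12). The antenna gene LHCA1 and the chlorophyll gene PORC were the 2 that fell. In the oxidative stress list 6 of 19 rose and 8 fell, where 25.7% and 25.1% of all genes did. The chloroplast copper/zinc superoxide dismutase CSD2 and its copper chaperone CCS were late rises, CSD2 from 219 to 244 CPM at 2 h to 611 to 712 CPM at 24 h and CCS by 1.48 on the log2 scale.

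**Figure D4:**
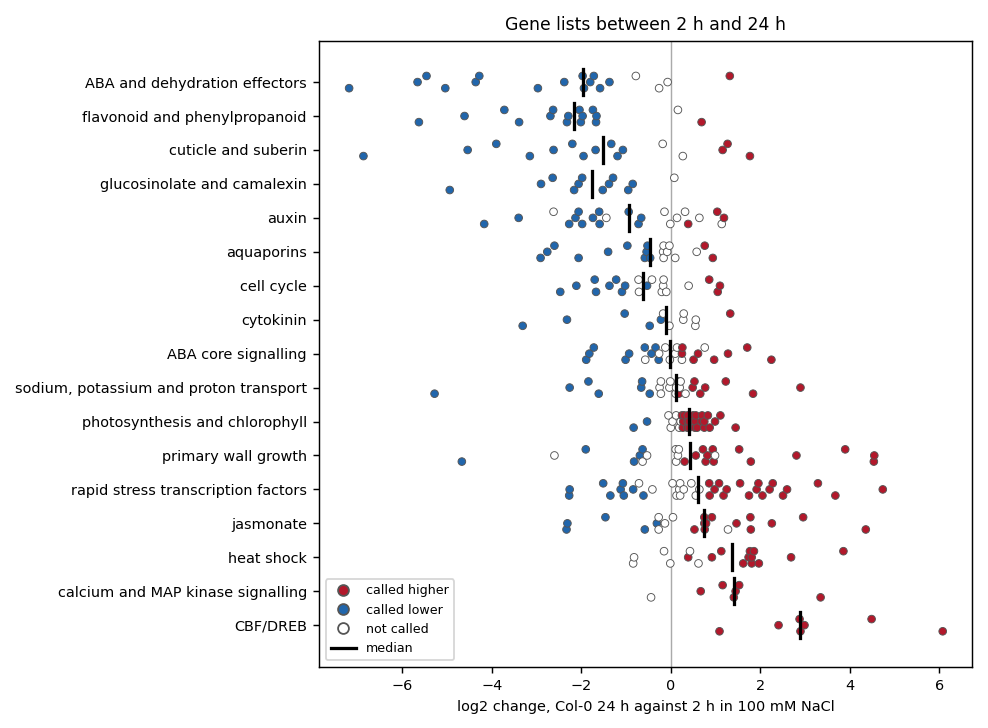
log2 change of each tested member of 17 gene lists (rows) in Col-0 at 24 h against 2 h of 100 mM NaCl; filled points passed an adjusted p under 0.05, open points did not, and bars are list medians. ABA effectors (median -1.95) and flavonoid genes (median -2.16) lie left of 0 and CBF/DREB genes (median 2.90) right of it.

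Some early changes stayed in place or grew. MOT1, a molybdate transporter, was at 4.95, 5.86 and 5.31 CPM at 0 h, 52.3, 58.3 and 49.2 CPM at 2 h and 49.1, 57 and 53.5 CPM at 24 h, so that the 2 h and 24 h libraries overlapped and lay above all 0 h libraries. PBS3, an enzyme of salicylic acid synthesis, persisted with 11.8 CPM at 24 h against 1.1 CPM at 0 h. The ERF factor gene ERF53 had persisted as a fall, from 31.1 to 51.9 CPM at 0 h to 0.439 to 0.783 CPM at 24 h. SRG1, a senescence-related oxygenase, strengthened from 1.29 CPM to 6.17 and 37.6 CPM. Late falls included SPX1, a phosphate sensor, from 11.8, 27.8 and 16.2 CPM to 1.82, 2.03 and 2.44 CPM, and CRK41, a receptor-like kinase, from 8.4 to 19.4 CPM to 0.925 to 1.62 CPM. LYK2, a LysM receptor-like kinase, was a late rise, from 0.386 to 0.568 CPM to 20.3, 16.8 and 8.21 CPM.

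Of 12 G-protein genes 4 rose and 2 fell between 2 h and 24 h, where 25.7% and 25.1% of all genes did, so the count is no result about them. GPA1, the G alpha subunit, read 138, 143 and 144 CPM at 2 h and 64.8, 65.1 and 63.8 CPM at 24 h (log2 change -1.13, SE 0.08, adjusted p 4e-13), below its 114 to 125 CPM at 0 h. AGB1, the G beta subunit, was not called, with 116 and 117 CPM at 2 h and 24 h. XLG3, an extra-large G alpha, fell by 0.51 and XLG1 rose by 0.43 on the log2 scale. The G beta partner NDL1 had recovered, from 175 CPM to 74.9 and 179 CPM, whereas NDL2 and NDL3 had only partly done so.

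The mutant libraries give the same time step from other seedlings, although they shared with Col-0 the filter and the estimate of spread of 1 model. In a model of the Col-0 salt-course libraries alone 84.4% of early genes stayed in their class. As a check of the labels, GPA1 averaged 17.9 CPM at 2 h in gpa1-3 against 141 CPM in Col-0, and XLG2 9.06 CPM in xlg1,2,3 against 105 CPM, but XLG1 was at 69.4 CPM in xlg1,2,3 and 58.5 CPM in Col-0. AGB1 was at 139 CPM at 0 h in the libraries labelled agb1-2 against 130 CPM in Col-0, and at 57.8 CPM at 2 h. Genes called lower at 24 h than 2 h made up 23.6% of all tested in gpa1-3, 25.4% in agb1-2 and 27.9% in xlg1,2,3. Of the 608 recovered early rises of Col-0, 65%, 67.6% and 83.9% were called lower in gpa1-3, in the libraries labelled agb1-2 and in xlg1,2,3. Of the 171 reversed early rises 89.5%, 86.5% and 97.1% were. Of the 680 persisting early rises, 19.9%, 30.3% and 23.1% were called lower. In the libraries labelled agb1-2 this was above the 25.4% of all genes, and in the other 2 genotypes below their shares. Of the 698 persisting early falls, 18.3%, 22.3% and 14.8% were called higher, where 26%, 28.1% and 28.7% of all genes were.

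**Figure D5:**
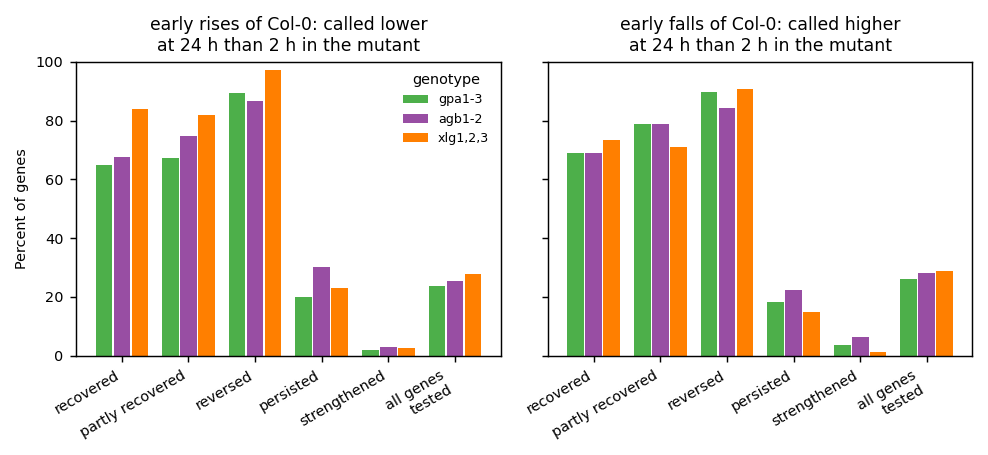
Percent of genes in each Col-0 class (axis from 0) that were called lower (left, early rises) or higher (right, early falls) at 24 h than 2 h in gpa1-3, the libraries labelled agb1-2 and xlg1,2,3, beside all genes tested. Recovered and reversed classes stand above all genes, and strengthened classes stand below.

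Where the time step itself was tested against Col-0, 1378 genes (6.61%) differed in gpa1-3, 3106 (14.9%) in the libraries labelled agb1-2 and 1162 (5.57%) in xlg1,2,3. Without replicate 2 of Col-0 at 2 h the counts for gpa1-3 and xlg1,2,3 were 817 and 723. EXO changed by 3.52 in gpa1-3 and 5.65 in Col-0 on the log2 scale, and MYB77 by 3.65 and 5.71. These genes were chosen for their large change in the same Col-0 libraries, so the differences are a description.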

How the data were processed

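RNA was sequenced from whole seedlings, and the deposited Arabidopsis table holds expected counts per gene (estimated counts, 1.35% of values not whole) for 44 libraries and 32853 genes. Per the submitters' processing notes the authors used STAR and the TAIR10 build; no source here names the counting tool, the versions or the strand setting. Counts were rounded to whole numbers and genes with low counts were removed with filterByExpr (minimum count 10, minimum total 15). One model over all 44 libraries was fitted with edgeR 4.0.16 (R 4.3.3, limma 3.58.1) using TMM scaling and the quasi-likelihood test. The tunicamycin libraries and the 0 h mutant libraries thus shared in the filter, the scaling and the estimate of spread. P-values were adjusted by Benjamini-Hochberg over all 20858 genes tested, at a threshold of 0.05; the standard error of a log2 change is its size divided by the square root of F. Tables and figures were made with Python 3.11.15, pandas 2.3.3 and matplotlib 3.10.9. DESeq2 1.42.0 was an alternative, with other scaling, no filter, a stricter threshold, the Col-0 libraries alone, a replicate block and each Col-0 library left out.

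Genes were named by rule: the 10 largest called rises and falls with a mean of at least 10 CPM and groups that do not overlap, the 4 largest changes per class and direction with the same minimum, the 4 smallest p per gene list, and all G-protein genes. Other list members were chosen as examples after their values were seen. The compared groups and the 35 gene lists (612 members, 611 in the table, 562 tested) were chosen with earlier results of these data known, so their counts are descriptions. Deviations of same-numbered libraries correlated weakly, and no pairing was used in the main model. The values were 0.0263, 0.0487 and -0.0444 for 2 h and 24 h. They were 0.0321, 0.0852 and 0.0863 for 0 h and 2 h, and 0.00847, -0.137 and 0.0596 for 0 h and 24 h. Weak correlation does not show that same-numbered libraries share nothing. No 2 libraries were identical. On simulated counts for this comparison (20692 genes) the procedure recovered 53.7% of genes changed 1.5-fold, 89.6% changed 2-fold and 100% changed 4-fold. In the simulation 10 unchanged genes were called. Only 67, 67 and 66 genes were changed at these folds, whereas 10589 were called in the data. The rates may therefore not hold for the data. Promoters were read from the TAIR10.1 genome, whose annotation holds 32182 of the gene IDs.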

Additional observations from a re-analysis of the deposited data

Results flagged for a closer look

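Among the 20 largest Col-0 changes from 2 h to 24 h, tested against each of 3 mutants (60 tests within the fit over all genes, edgeR quasi-likelihood, Benjamini-Hochberg adjustment), 15 passed an adjusted p of 0.05. Of all genes tested 6.61% did in gpa1-3, 14.9% in the libraries labelled agb1-2 and 5.57% in xlg1,2,3. Each value below is the log2 change in the mutant minus that in Col-0. The genes were chosen for an extreme change in the same Col-0 libraries, a choice that favours smaller changes in the mutants. The values are therefore a description, and no smaller response in a mutant can be read from them.

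The values for 5 of the rises were as follows. DREB26, which rose by 5.97 in Col-0, differed by -2.04 in gpa1-3 (adjusted p 0.0048) and by -1.69 in the libraries labelled agb1-2 (adjusted p 0.012). MYB77 differed by -2.06 in gpa1-3 (adjusted p 0.035) and by -2.26 in those labelled agb1-2 (adjusted p 0.013). EXO differed by -2.13 (adjusted p 0.017) and -1.93 (adjusted p 0.019) in the same order. AT3G19680, which an antisense gene overlaps, differed by -2.55 (adjusted p 0.0061) and -2.13 (adjusted p 0.015). AT1G77640 differed by -2.82 in gpa1-3 (adjusted p 0.024).

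The values for 4 of the falls were as follows. FAR1, which fell by 6.87 in Col-0, differed by 1.34 in gpa1-3 (adjusted p 0.017) and by -1.58 in xlg1,2,3 (adjusted p 0.024). RD22 differed by 1.29 in gpa1-3 (adjusted p 0.014). CAD9 differed by 1.20 in gpa1-3 (adjusted p 0.01) and by 1.35 in the libraries labelled agb1-2 (adjusted p 0.0018). CYP86A2 differed by 1.22 in those labelled agb1-2 (adjusted p 0.00036).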

How the results depend on the processing

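The count of 10589 genes was 10572 with DESeq2 size factors, 10314 with DESeq2, 10403 with no low-count filter, 8994 with the Col-0 libraries alone and 9279 to 10538 with 1 Col-0 library left out; higher genes made up 46.5% to 51.1% of calls over the settings run. The replicate block gave 10940 calls, and 8902 in the Col-0 libraries alone (added after seeing the data). Same-numbered libraries correlated weakly, and not every library correlated best with its own number. Unresolved early genes numbered 293 with no filter, 297 at adjusted p under 0.01 and 181 to 334 with 1 library left out. At adjusted p under 0.01, 171 early genes reversed, and 573, 1430 and 348 genes differed from Col-0 in gpa1-3, the libraries labelled agb1-2 and xlg1,2,3. With 1 Col-0 library left out these were 817 to 1780, 2344 to 3883 and 723 to 1673. With no fold threshold there were 11744 early genes, of which 2780 recovered, 853 reversed, 3980 persisted, 1483 strengthened and 927 were unresolved. Between 76.7% and 97.6% of the 4567 early genes stayed in their class over the settings compared. Of 3010 alternatives for 189 named genes, 2950 kept direction and side of the threshold, 31 lost the call, 28 gained it, and 1 reversed: the log2 change of CRA1 ranged from -0.20 without replicate 1 at 24 h to 7.72 without replicate 2 at 24 h. Depth limits genes such as COR15A, with 2, 3 and 1 reads at 24 h.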

Other observations

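Where they were called, ethylene genes were mostly higher at 24 h than at 2 h. Of 17 tested 7 were higher and 1 lower (median log2 change 0.24), against 25.7% and 25.1% of all genes. ACS6, which makes the ethylene precursor, averaged 42.7 CPM at 0 h, 86 CPM at 2 h and 364 CPM at 24 h. EBF1, an F-box protein that removes the ethylene factor EIN3, rose from 155 to 405 CPM between 2 h and 24 h. Without replicate 2 at 2 h, 3 ethylene genes were lower; without replicate 2 or replicate 3 at 24 h, 2 were.

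In the clock list 8 of 19 genes rose and 5 fell (median 0.17), where 25.7% and 25.1% of all genes did. The 5 falls are near that share and are no result about the list. GI, a clock and flowering protein, had recovered, with 72.5, 36.1 and 66.8 CPM at 0 h, 2 h and 24 h. The 2 h and 24 h samples were 22 h apart under continuous light, and clock phase and salt cannot be told apart. In the nitrate list NRT1.5, which loads nitrate into the xylem, was a late rise from 0.237 to 2.61 CPM, and the nitrate reductase gene NIA1 partly recovered, with 218, 1117 and 520 CPM. FER1, an iron-storage ferritin, was a late rise from 337 to 692 CPM.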
